A study of Homo sapiens with 8 samples.

Results

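Antisense long noncoding RNAs are transcripts read from the DNA strand opposite a protein-coding gene and named after that gene, the sense gene. Members were the genes of the deposited count table whose symbol ends in -AS and a single digit, without EPB41L4A-AS1, with a mean of at least 1 CPM (a gene's counts after all libraries are set to an equal total) over the 8 libraries. This gave 196 of the 58787 genes of the table. Another 1021 of the 1217 antisense-named genes lay under the minimum, and 500 had a count of 0 in every library. CBR3-AS1 at 1.01 CPM, SHANK2-AS1 at 1.01 CPM and POC1B-AS1 at 1.03 CPM were just inside the minimum, and PROX1-AS1 at 0.998 CPM, ADAMTS9-AS2 at 0.992 CPM and ZNF436-AS1 at 0.990 CPM were just outside. GENCODE release 29 types 138 of the members as antisense, 29 as processed transcripts, 24 as long intergenic RNAs, 3 as pseudogenes, 1 as a bidirectional promoter RNA and 1, NCBP2-AS2, as protein-coding, so the symbol is wider than the class.

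The RNA came from IMR32, an established human neuroblastoma line with amplified MYCN and labelled wild type. Cells adhered for 48 h and then received either CR31B, a rocaglate that blocks the RNA helicase eIF4A, at a dose given as the IC50, or 0.1% DMSO as vehicle. The labels name a single time, 6 h, and 4 biological replicates in each group. Polyadenylated RNA was measured in 1 cell line, so these values hold for IMR32 alone.

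Many antisense RNAs start from a promoter shared head to head with their sense gene, and others start elsewhere and run into or through it. They are usually less abundant than coding mRNAs, many stay in the nucleus, and the nuclear exosome and the Integrator complex shorten or destroy part of them. In neuroblastoma the class is known from genes that lie next to the adrenergic transcription factors, such as HAND2-AS1 and GATA3-AS1, because these factors hold the cell in its sympathetic identity.

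Total counts ranged from 43687828 to 64715535 per library. Replicates 2, 3 and 4 of both groups were sequenced single-end and replicate 1 of both groups paired-end, and the paired-end libraries ran against their labels: over the 196 members, the difference between the library labelled CR31B replicate 1 and the library labelled DMSO replicate 1 correlated with the single-end fold change with r = -0.842 (Pearson) and rho = -0.799 (Spearman) (a description over genes, which are not independent replicates). Directions below therefore follow the single-end libraries, 3 in each group, with replicate 1 given beside them. All 12 neuroblastoma markers were at 1 CPM or more in these libraries, and their summed level ranged from 5554 to 7030 CPM in the CR31B libraries and from 5256 to 6929 CPM in the DMSO libraries. Of 10 mesenchymal or Schwann cell markers 5 were at 1 CPM or more, with sums between 58.7 and 98.1 CPM, and PRRX1 and SOX10 were at 0. Of 9 blood and endothelial markers 1 was at 1 CPM or more, with sums between 1.25 and 3.72 CPM, and CD3E and HBB were at 0.

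The labels do not state a strand setting; the name of the deposited table holds the word "reverse", which may refer to reverse-strand counting. Without strand the reads of overlapping sense and antisense exons cannot be told apart. Among coding genes with at least 80% of their exonic bases under exons of the opposite strand, and none under exons of their own strand, 10 of 36 (27.8%) reached 1 CPM. Where such overlap lay on the same strand, which makes reads ambiguous under either setting, 2 of 441 (0.454%) did. Of coding genes without exonic overlap on either strand, 5992 of 11073 (54.1%) did. PCF11-AS1 lies entirely (100%) within exons of PCF11, yet it had a mean of 3.0 CPM against 164 CPM for PCF11, and its change had the opposite sign. Values of the 86 overlapping members that share exonic bases with their sense gene carry this limit. Head-to-head members carry it too wherever exons share bases, and 55 of these 82 overlap their sense gene at the starts.

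The starts of 4 changed members that lie head to head with their sense gene are shown first. In GENCODE the starts of each pair lie within 1000 bases, and none of the 4 windows holds the sense start. Each is the RefSeq window (GRCh38.p14) from 250 bases before to 50 bases after the start of the antisense gene, written 5′ to 3′ on its own strand, and these were the 4 largest changes among called head-to-head members whose window holds no untranslated exon. Capitals mark matches to CCAAT (bound by NF-Y) or GGGCGG (the GC box bound by SP1 family factors) on either strand, of 5 motifs searched.
ACVR2B-AS1 (chr3:38454771-38455070, minus strand): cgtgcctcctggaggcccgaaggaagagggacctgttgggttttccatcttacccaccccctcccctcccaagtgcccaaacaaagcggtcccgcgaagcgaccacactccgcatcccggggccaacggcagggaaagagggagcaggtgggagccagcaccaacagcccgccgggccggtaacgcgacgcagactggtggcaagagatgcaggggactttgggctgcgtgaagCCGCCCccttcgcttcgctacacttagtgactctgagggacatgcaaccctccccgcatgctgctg
SATB1-AS1 (chr3:18444987-18445286, plus strand): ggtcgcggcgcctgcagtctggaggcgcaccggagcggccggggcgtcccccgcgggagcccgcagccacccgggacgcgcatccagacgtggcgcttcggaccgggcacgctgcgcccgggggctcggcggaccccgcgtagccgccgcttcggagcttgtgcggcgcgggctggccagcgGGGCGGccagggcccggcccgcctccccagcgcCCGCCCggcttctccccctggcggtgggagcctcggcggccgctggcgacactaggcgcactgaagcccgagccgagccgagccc
TMPO-AS1 (chr12:98516177-98516476, minus strand): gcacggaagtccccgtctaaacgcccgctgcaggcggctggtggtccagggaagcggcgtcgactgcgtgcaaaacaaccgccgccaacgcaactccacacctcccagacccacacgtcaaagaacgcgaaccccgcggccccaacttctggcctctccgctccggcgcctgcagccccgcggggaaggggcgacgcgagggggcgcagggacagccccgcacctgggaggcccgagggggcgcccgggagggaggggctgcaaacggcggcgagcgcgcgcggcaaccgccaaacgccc
DEPDC1-AS1 (chr1:68496426-68496725, plus strand): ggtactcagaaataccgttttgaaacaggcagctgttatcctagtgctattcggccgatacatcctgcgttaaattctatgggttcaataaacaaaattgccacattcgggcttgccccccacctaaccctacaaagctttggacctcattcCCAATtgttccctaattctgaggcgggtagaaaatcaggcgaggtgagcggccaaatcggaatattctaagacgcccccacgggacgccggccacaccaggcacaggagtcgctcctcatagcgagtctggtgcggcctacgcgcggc
The first 3 belong to members that were lower with CR31B and the last to one that was higher. ACVR2B-AS1 has a single GC box match on its reverse strand, SATB1-AS1 has GC box matches on both strands, TMPO-AS1 has none of the 5 motifs and DEPDC1-AS1 has a CCAAT match. These windows hold 20, 47, 39 and 19 CpG dinucleotides in the order shown, against a median of 25 over the members with a window.

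CR31B changed the antisense RNAs in both directions and mostly by small amounts. In the single-end libraries 56 of 196 members (28.6%) passed an adjusted p of 0.05 (quasi-likelihood test of edgeR over 16696 genes, Benjamini-Hochberg), 28 higher and 28 lower, while 41.3% of all tested genes passed, 23.8% higher and 17.6% lower, and 49.7% of those with a mean of at least 1 CPM. Of these 56, 20 had moved at least 1.5-fold (10.9% of tested genes did) and 3 at least 2-fold (2.68%). TFAP2A-AS1, ST7-AS1 and KIAA1614-AS1 were those 3, all of them higher. The median log2 fold change was 0.51 over the members called higher and -0.53 over those called lower. Over all 196 it was -0.10, from -0.94 to 1.27, against -0.0070 over all tested genes.

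The even split of directions moved with the settings and with single libraries. With replicate number as a block 87 members passed, 39 higher and 48 lower. Upper quartile scaling gave 21 higher and 47 lower (30.9% higher against 50% with TMM), and library totals gave 21 higher and 39 lower (35%); these scalings lowered the median of all genes by 0.0954 and 0.0780 on the log2 scale. The number called lower was 18 without CR31B replicate 2, 43 without CR31B replicate 3, 16 without CR31B replicate 4 and 17 without DMSO replicate 3. With all 8 libraries as labelled 0 members passed (edgeR), as did 0% of 16518 genes. An unadjusted p under 0.05 (edgeR) was found in 4 members (2.04%) and in 1.24% of the 16518 genes. These 4 were PXN-AS1, SLC9A3-AS1, ZSCAN16-AS1 and ELOA-AS1. DESeq2 also called 0 members. Leaving out either replicate 1 library from the edgeR fit gave 56 members. The layout term then takes up the only paired-end library left, so this in effect repeats the single-end fit.

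All 56 called members had the sign of the fit in replicates 2, 3 and 4. The calls were made from these replicates, so this agreement follows largely from the selection. In replicate 1, which the fit did not use, 55 had the opposite sign. SLC9A3-AS1, named after a sodium-proton exchanger, was the exception, at 0.36 in the fit and 0.19 in replicate 1 on the log2 scale. Groups of 3 libraries did not overlap in 75 of 196 members (52.1% of tested genes). Among them were 52 of the 56 called, which were selected on these same libraries. SLC9A3-AS1, CD27-AS1, DICER1-AS1 and MELTF-AS1 were called although their groups overlapped. The term for treatment by layout passed in 57 members (edgeR; 42.5% of 16518 genes), and all 57 had opposite signs in the single-end and paired-end libraries. That test has 1 paired-end library per group, so its spread comes from the single-end libraries.

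**Figure D1:**
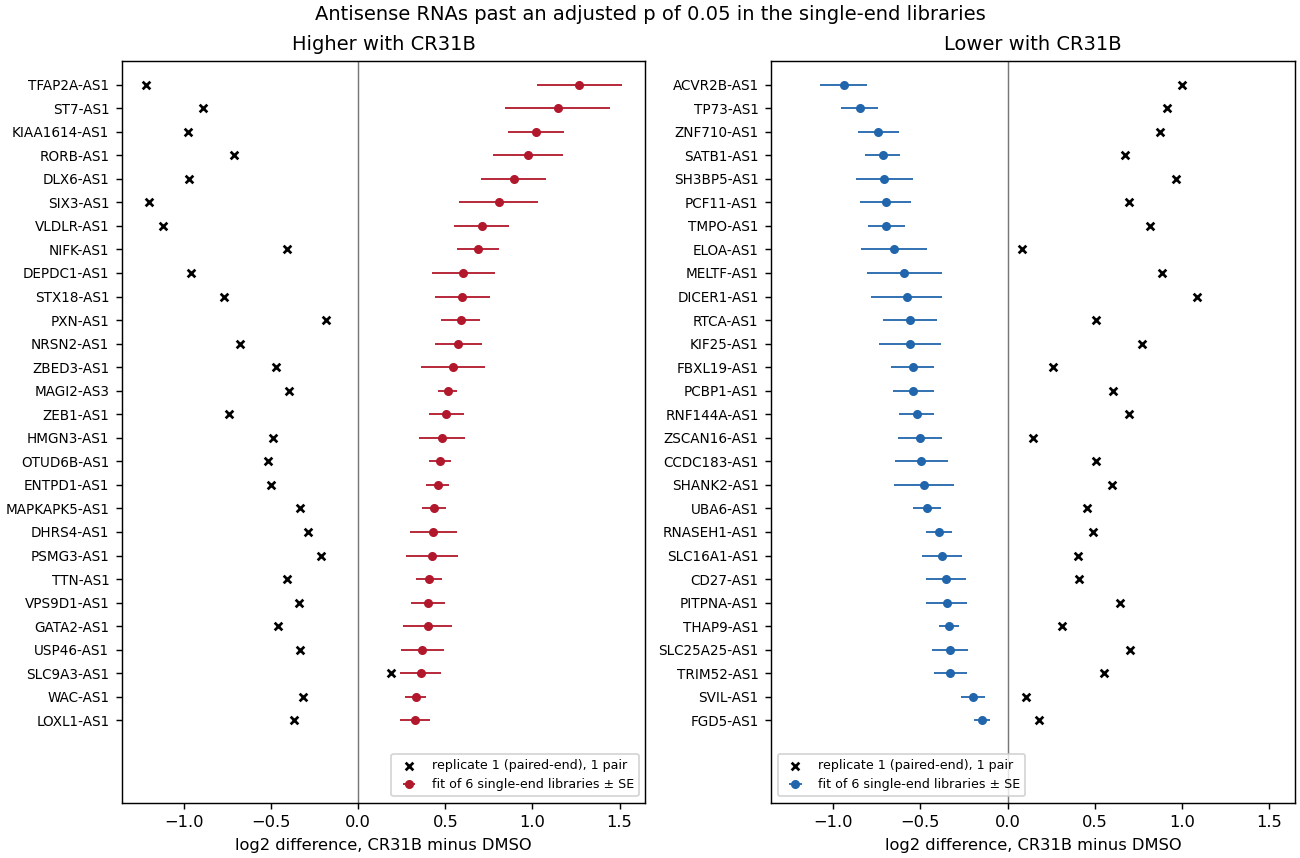
Log2 difference between CR31B and DMSO for the 28 members called higher (left) and the 28 called lower (right); points with bars are the fit of the 6 single-end libraries ± SE, and crosses are the single difference of replicate 1. Crosses lie on the other side of 0 from the points in 55 of 56 members, the exception being SLC9A3-AS1.

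TFAP2A-AS1 (chromosome 6, 10409340 to 10416446, plus strand, GRCh38) showed the largest rise. It starts in the locus of TFAP2A, a neural crest transcription factor, and 25.9% of its exonic bases lie in TFAP2A exons. Its TMM-normalised CPM was 1.07, 1.88 and 1.61 in CR31B replicates 2, 3 and 4 and 0.743, 0.548 and 0.603 in the DMSO replicates. Every CR31B library was above every DMSO library in this layout. The log2 fold change was 1.27 ± 0.24 (SE; adjusted p = 0.00193, edgeR), or 2.41-fold. In replicate 1 the order was reversed, with 0.832 CPM in the library labelled CR31B and 1.96 in the library labelled DMSO, and over all 8 libraries the fold change was 0.64 with an adjusted p of 0.707 (edgeR). TFAP2A itself was at 18.7 ± 0.857 CPM (SD, n = 3) with CR31B and 17.7 ± 2.17 with DMSO, a log2 fold change of 0.08.

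ST7-AS1, antisense to ST7, stood at 2.52, 1.33 and 1.16 CPM with CR31B and 0.695, 0.932 and 0.623 with DMSO, a log2 fold change of 1.15 ± 0.30 (adjusted p = 0.0113, edgeR). CR31B replicate 2 was the highest of these libraries and the groups did not overlap. KIAA1614-AS1 (chromosome 1, 180949699 to 180954887, minus strand) had 1.91, 2.48 and 2.13 CPM with CR31B. Its DMSO libraries were nearly identical, at 1.07, 1.08 and 1.07 CPM, and the log2 fold change was 1.02 ± 0.16 (adjusted p = 0.000552, edgeR). In this pair 84.7% of the antisense exonic bases lie within KIAA1614 exons, and KIAA1614 moved the other way.

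Transcription factor loci of the nervous system supplied the next members. RORB-AS1, beside the nuclear receptor gene RORB, had 1.35, 1.71 and 1.28 CPM with CR31B and 0.889, 0.681 and 0.642 with DMSO, and rose by 0.97 ± 0.20 on the log2 scale (adjusted p = 0.00315, edgeR). DLX6-AS1, which spans the DLX5 and DLX6 homeobox locus on chromosome 7, had 4.50, 7.54 and 4.82 CPM with CR31B and 2.88, 3.26 and 2.98 with DMSO. Its rise was 0.89 ± 0.19 (adjusted p = 0.00347, edgeR), and CR31B replicate 3 was its highest library. SIX3-AS1, whose start lies 25 bases from that of the forebrain homeobox gene SIX3, had 2.15, 1.72 and 1.72 CPM against 1.42, 1.02 and 0.739. Its log2 fold change was 0.81 ± 0.23 (adjusted p = 0.0158, edgeR), and without DMSO replicate 4 it was 0.62 with an adjusted p of 0.0506.

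The other members among the 12 largest rises lay beside genes of varied function. VLDLR-AS1, beside the lipoprotein and reelin receptor gene VLDLR, had 1.85, 2.24 and 2.37 CPM with CR31B and 1.2, 1.39 and 1.36 with DMSO (log2 fold change 0.71 ± 0.16). NIFK-AS1, beside a gene for a nucleolar partner of Ki-67, had 10.9, 13.9 and 11.6 CPM against 8.53, 7.44 and 6.62 (0.69 ± 0.12). DEPDC1-AS1, STX18-AS1, PXN-AS1 and NRSN2-AS1 followed, with log2 fold changes of 0.60, 0.60, 0.59 and 0.57. STX18 encodes a syntaxin of the endoplasmic reticulum and PXN the focal adhesion adaptor paxillin. All 6 had groups that did not overlap. For DEPDC1-AS1, whose window is printed above, the adjusted p rose to 0.0595 without CR31B replicate 4, 0.0835 without DMSO replicate 3 and 0.0713 without DMSO replicate 4 (edgeR), and was 0.0705 with DESeq2.

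ACVR2B-AS1 (chromosome 3, 38451027 to 38454820, minus strand), whose window with a single GC box match is printed above, fell furthest. Its first exons face the gene of the activin receptor ACVR2B, and the gene bodies overlap by 970 bases at the starts. It had 1.77, 1.67 and 1.61 CPM in CR31B replicates 2, 3 and 4 and 3.51, 3.24 and 2.98 in the DMSO replicates. The groups were well apart, and the log2 fold change was -0.94 ± 0.13 (adjusted p = 0.000294, edgeR). Replicate 1 was reversed, with 2.80 CPM under the label CR31B and 1.39 under the label DMSO. Over all 8 libraries the fold change was -0.49 with an adjusted p of 0.707 (edgeR).

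TP73-AS1, typed as a transcribed pseudogene and lying beside the p53 family gene TP73, was the most abundant member with a fall of this size. CR31B replicates 2, 3 and 4 had 25.2, 17.9 and 21.9 CPM and the DMSO replicates 38.3, 37.9 and 41.0, a log2 fold change of -0.85 ± 0.10 (adjusted p = 0.00012, edgeR). TP73 was at 15.5 ± 1.91 CPM (SD, n = 3) with CR31B and 17.0 ± 1.2 with DMSO and did not pass. SATB1-AS1, head to head with the chromatin organiser gene SATB1, had 5.60, 6.00 and 5.64 CPM against 8.74, 10.4 and 9.20. Its fold change was -0.72 ± 0.10 (adjusted p = 0.000268, edgeR), while SATB1 stood at 428 ± 14.8 CPM with CR31B and 424 ± 9.06 with DMSO. In the pair of the CpG-rich SATB1-AS1 window, the sense groups therefore overlapped and the antisense groups did not.

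ZNF710-AS1 had between 3.26 and 3.45 CPM in CR31B replicates 2, 3 and 4 and 5.75, 6.16 and 4.92 with DMSO, a log2 fold change of -0.74 ± 0.12. SH3BP5-AS1 had 2.00, 2.57 and 1.70 CPM against 3.12, 3.72 and 3.48 (-0.71 ± 0.16). PCF11-AS1 had 2.52, 2.45 and 2.33 CPM against 3.20, 4.46 and 4.22 (-0.70 ± 0.15). PCF11 encodes a cleavage and termination factor of nascent transcripts, and it rose while its antisense gene fell. TMPO-AS1, opposite the gene of the nuclear lamina protein LAP2, had 12.2, 11.9 and 10.5 CPM with CR31B and 21.4, 18.4 and 16.3 with DMSO (-0.70 ± 0.11, adjusted p = 0.000492, edgeR). In each of these 4 members the 3 CR31B libraries lay below the 3 DMSO libraries.

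The remaining falls among the 12 largest were near the threshold. ELOA-AS1, MELTF-AS1, DICER1-AS1, RTCA-AS1 and KIF25-AS1 had log2 fold changes of -0.65, -0.59, -0.58, -0.56 and -0.56. Each of them lost its call without certain libraries (edgeR). For ELOA-AS1 the adjusted p was 0.0608 without CR31B replicate 2, 0.0689 without DMSO replicate 2 and 0.0611 without DMSO replicate 3. For MELTF-AS1 it was 0.124 without CR31B replicate 2, 0.105 without CR31B replicate 4, 0.191 without DMSO replicate 2 and 0.100 without DMSO replicate 3, and 0.0866 with GC and length offsets, 0.0539 with these and the block, and 0.0672 with limma voom. DICER1-AS1, opposite the gene of the RNase that cuts microRNA precursors, had 0.117 without CR31B replicate 2, 0.0967 without CR31B replicate 4, 0.0978 without DMSO replicate 2 and 0.160 without DMSO replicate 3, and 0.0527 with limma voom. RTCA-AS1 had 0.0533 without DMSO replicate 2 and 0.0514 without DMSO replicate 4. KIF25-AS1, beside a kinesin gene, had 0.0858 without CR31B replicate 2, 0.0952 without CR31B replicate 4 and 0.120 without DMSO replicate 3. SHANK2-AS1, just above the CPM minimum at a log2 fold change of -0.48 (adjusted p = 0.0472, edgeR), lost its call without any of the 6 libraries, with adjusted p values from 0.0646 without CR31B replicate 4 to 0.135 without CR31B replicate 2, and was also not called with DESeq2 (0.141), limma voom (0.0539), no filter (0.0881) or GC and length offsets (0.0632, or 0.0511 with the block).

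The most abundant members moved by smaller amounts than the 12 largest called changes in each direction. LRRC75A-AS1, called SNHG29 in newer lists and a host of small nucleolar RNAs, had 518, 526 and 553 CPM with CR31B and 576, 525 and 528 with DMSO, and its groups overlapped at a log2 fold change of -0.03 ± 0.06; this small value turned positive with GC and length offsets. HAND2-AS1 followed at a mean of 327 CPM. FGD5-AS1 had 253, 252 and 255 CPM against 288, 280 and 273, and its fall of 0.14 ± 0.05 on the log2 scale passed narrowly (adjusted p = 0.0292, edgeR). Its adjusted p was 0.0711 without CR31B replicate 2, 0.0739 without CR31B replicate 4, 0.100 without DMSO replicate 2, 0.0576 without DMSO replicate 3 and 0.0588 without DMSO replicate 4. OIP5-AS1, known as a cytoplasmic sponge for microRNAs and HuR, had 208, 238 and 220 CPM against 252, 245 and 237, a log2 fold change of -0.14 (adjusted p = 0.0819, edgeR). It passed with the replicate block (0.0310), upper quartile scaling (0.0114), library totals (0.0184), no filter (0.0413), a filter of 1 CPM in 3 libraries (0.0338) and without CR31B replicate 3 (0.0146), and, at -0.39, with GC and length offsets (0.000552, or 2.07e-05 with the block added).

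Called rises among the abundant members were better separated. MAGI2-AS3 had 204, 218 and 207 CPM with CR31B and 156, 143 and 143 with DMSO, a log2 fold change of 0.51 ± 0.05 (adjusted p = 4.31e-05, edgeR). OTUD6B-AS1 had 114, 118 and 112 CPM against 89.8, 81.7 and 76.9 (0.47 ± 0.06, adjusted p = 0.000174, edgeR). WAC-AS1 rose by 0.33 ± 0.06 and THAP9-AS1 fell by 0.34 ± 0.06. None of these 4 had overlapping groups, and each had the opposite sign in replicate 1.

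**Figure D2:**
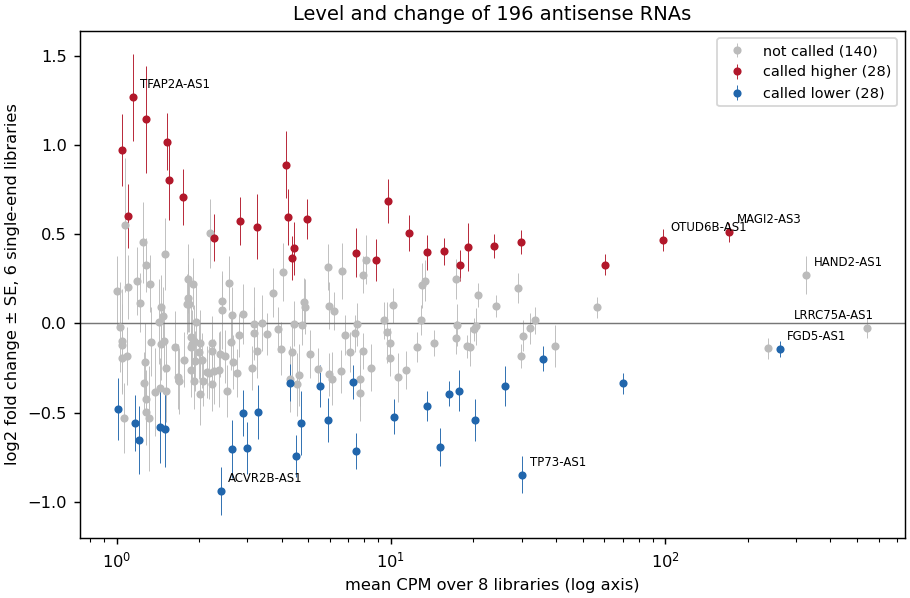
Mean CPM over the 8 libraries (log axis) against the log2 fold change ± SE in the 6 single-end libraries for all 196 members, coloured by call (28 higher, 28 lower, 140 not called). Most of the largest changes lie at a few CPM, where the SE is also largest. TP73-AS1, TMPO-AS1 and NIFK-AS1 changed by similar amounts at higher levels. The 4 members above 200 CPM lie between -0.14 and 0.27.

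Low level and wide error went together with the low share of calls. Members had a median of 3.61 CPM against 32.4 for tested genes of at least 1 CPM, and a median SE of 0.146 against 0.0728. Their median absolute log2 change, 0.252, was close to the 0.226 of those genes and the 0.233 of the sense genes. Called members made up 12 of 60 (20%) at 1 to 2 CPM, 16 of 58 (27.6%) at 2 to 5, 17 of 53 (32.1%) at 5 to 20 and 11 of 25 (44%) at 20 CPM or more. For all tested genes of these levels the shares were 19.0%, 27.0%, 44.3% and 59.2%. The shares were close below 5 CPM and lower for members above it, and whether they differ was not tested.

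A sense gene was in the table for 194 members, and in 185 pairs both genes could be tested. Of the 185 sense genes 98 (53.0%) were called, 69 higher and 29 lower, against 49.7% of tested genes at 1 CPM or more, and their median log2 fold change was 0.095. Across the 185 pairs the antisense change was only loosely related to the sense change, with r = 0.109 (Pearson) and rho = 0.128 (Spearman); the genes of a pair share their libraries and scaling, so this is a description. Both genes were called in 25 pairs, 13 in the same direction and 12 in opposite directions. The antisense gene alone was called in 28 pairs, the sense gene alone in 73 and neither in 59.

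The change of the antisense gene was also compared with that of its sense gene within each library, which cancels library scaling. The difference passed in 79 of 185 pairs (limma with Benjamini-Hochberg over 410 pairs), 20 with the antisense gene above and 59 below its sense gene. Over all 410 pairs named after a neighbour, which include the members, 29.8% passed, 6.34% above and 23.4% below. The median difference was -0.18 on the log2 scale, and -0.088 with GC and length offsets. A fit without the abundance trend called 8 above and 41 below, the replicate block 26 and 69, and 13 were above without DMSO replicate 2. In replicate 1 the difference had the opposite sign in 78 of the 79 pairs, and with all 8 libraries as labelled 0 pairs passed (limma).

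**Figure D3:**
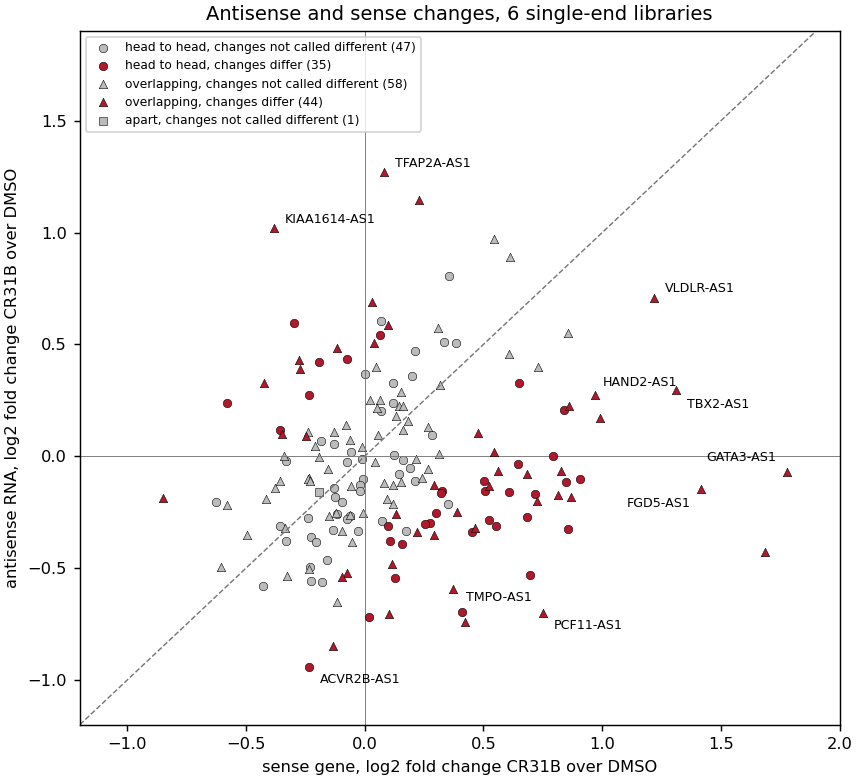
Log2 fold change of the sense gene (x axis) against that of its antisense RNA (y axis) in the 6 single-end libraries, 1 mark per pair (185 pairs), with the dashed line at equal change. Filled red marks are the 79 pairs whose changes differed (limma), and 59 of them lie below the line.

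Both genes rose in 10 pairs, ST7-AS1, RORB-AS1, DLX6-AS1, SIX3-AS1, VLDLR-AS1, NRSN2-AS1, MAGI2-AS3, OTUD6B-AS1, GATA2-AS1 and WAC-AS1. RORB stood at 90.7, 104 and 103 CPM with CR31B and 66.1, 66.3 and 71.7 with DMSO, a log2 fold change of 0.55 beside 0.97 for RORB-AS1, and the difference of 0.41 ± 0.22 did not pass (adjusted p = 0.178, limma). DLX6, a homeobox factor, had 19.0, 24.2 and 20.8 CPM against 13.9, 14.0 and 14.0, a change of 0.61 beside 0.89 for DLX6-AS1 (difference 0.25 ± 0.15). VLDLR rose more than its antisense gene, by 1.22 against 0.71 (difference -0.51 ± 0.18, adjusted p = 0.0335, limma). WAC did so too, at 0.65 against 0.33 (difference -0.32 ± 0.12, adjusted p = 0.0353, limma). ST7-AS1 rose more than ST7, by 1.15 against 0.23 (difference 0.84 ± 0.26, adjusted p = 0.0161, limma).

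Both genes fell in 3 pairs, RTCA-AS1, DICER1-AS1 and ACVR2B-AS1. DICER1 itself had 129, 118 and 123 CPM with CR31B and 175, 160 and 163 with DMSO, a log2 fold change of -0.43 beside -0.58 for DICER1-AS1, and their difference was not called (-0.12 ± 0.21). ACVR2B had 166, 162 and 161 CPM against 203, 190 and 182, a fall of 0.23 on the log2 scale. The fall of ACVR2B-AS1 was larger by 0.70 ± 0.16 (adjusted p = 0.00189, limma). This head-to-head pair therefore moved in the same direction by unequal amounts.

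Opposite directions were seen in 12 pairs. The antisense gene rose and the sense gene fell in 4, KIAA1614-AS1, STX18-AS1, PSMG3-AS1 and LOXL1-AS1. KIAA1614 had 14.4, 13.1 and 13.8 CPM with CR31B and 17.9, 17.3 and 18.6 with DMSO, a log2 fold change of -0.38, and the difference of 1.38 ± 0.19 was the largest positive value among the named pairs (adjusted p = 1e-05, limma). STX18 fell by 0.30 on the log2 scale while STX18-AS1 rose by 0.60 (difference 0.88 ± 0.16). The antisense gene fell and the sense gene rose in 8, FGD5-AS1, SVIL-AS1, PITPNA-AS1, RNASEH1-AS1, MELTF-AS1, TMPO-AS1, PCF11-AS1 and ZNF710-AS1. TMPO had 939, 899 and 1004 CPM with CR31B and 689, 711 and 741 with DMSO, a change of 0.41, and TMPO-AS1 differed from it by -1.10 ± 0.14 (adjusted p = 2.53e-06, limma). PCF11 had 188, 234 and 197 CPM against 126, 124 and 118, a change of 0.75, and PCF11-AS1 differed from it by -1.43 ± 0.17 (adjusted p = 1.55e-06, limma).

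Several of the largest differences came from sense genes that rose while their antisense gene did not pass in the fit without a block, among them EP300, GATA3 and TBX2. EP300, a histone acetyltransferase gene, had 375, 442 and 445 CPM with CR31B and 129, 128 and 136 with DMSO, a log2 fold change of 1.68. EP300-AS1 had 1.09, 1.17 and 1.01 CPM against 1.63, 1.39 and 1.38, with a fold change of -0.43 and an adjusted p of 0.0606 (edgeR). It passed with the replicate block (0.0452), upper quartile scaling (0.0294), library totals (0.0360) and a filter of 1 CPM in 3 libraries (0.0367). The pair differed by -2.10 ± 0.20 (adjusted p = 3.2e-08, limma), and in replicate 1 by 1.78. FGD5, a CDC42 exchange factor at 0.665 CPM on average, rose by 1.42 on the log2 scale. FGD5-AS1, which did pass and was lower, differed from it by -1.50 ± 0.26 (adjusted p = 0.000128, limma). Their starts lie 137571 bases apart, and FGD5-AS1 was by far the more abundant of the pair per length, at 51.1 CPM per kb of exon against 0.0822.

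SERTAD4 rose by 0.87 and SERTAD4-AS1 had a fold change of -0.18 (difference -1.05 ± 0.21). ZNF503 rose by 0.69 and ZNF503-AS2 had -0.53 with an adjusted p of 0.0528 (edgeR), a difference of -1.19 ± 0.22. ZNF503-AS2 passed with the replicate block (0.0312, or 0.0423 with offsets added), RLE scaling (0.0462), upper quartile scaling (0.0286) and library totals (0.0341), and without DMSO replicate 4, at -0.66 with an adjusted p of 0.0292.

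Most core adrenergic transcription factors rose, and 4 of the 5 antisense RNAs beside them differed in change from their sense gene. Of 11 such sense genes, 9 were called higher and 1 lower in the single-end libraries, with a median log2 fold change of 0.73, and 5 members lie beside 5 of them. Among all tested genes 23.8% were called higher and 17.6% lower, and 79 of all 185 member pairs (42.7%) differed. Whether the shares of this short list depart from these was not tested. GATA3 had 804, 932 and 923 CPM with CR31B and 240, 262 and 275 with DMSO, a change of 1.78. GATA3-AS1 had 31.4, 34.1 and 26.5 CPM against 33.5, 32.4 and 30.9, with overlapping groups and a change of -0.07 ± 0.09 that turned to 0.03 without CR31B replicate 4. The pair differed by -1.85 ± 0.13 (adjusted p = 8.51e-11, limma). In replicate 1 GATA3 had 240 CPM in the library labelled CR31B and 856 in the library labelled DMSO, and GATA3-AS1 28.3 and 25.4.

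HAND2 had 1235, 1354 and 1393 CPM with CR31B and 661, 678 and 694 with DMSO, a log2 fold change of 0.97. HAND2-AS1 had 315, 434 and 378 CPM against 277, 336 and 320, so CR31B replicate 2 lay below both higher DMSO libraries, and its change was 0.27 ± 0.11 (adjusted p = 0.066, edgeR). The same change passed with the replicate block (0.27 ± 0.04, adjusted p = 0.000498), with DESeq2 (0.0253), with no filter (6.19e-05) and without CR31B replicate 2 (0.39, adjusted p = 0.00631). HAND2-AS1 rose less than HAND2 by 0.70 ± 0.12 (adjusted p = 0.000104, limma).

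TBX2 had 1190, 1151 and 1197 CPM with CR31B and 351, 521 and 556 with DMSO, a change of 1.31. TBX2-AS1 had 6.59, 9.78 and 7.44 CPM against 5.51, 7.39 and 6.54 (0.30 ± 0.16, adjusted p = 0.158, edgeR; 0.29 ± 0.08, adjusted p = 0.0126 with the replicate block, and 0.00355 with offsets added), a difference from TBX2 of -1.05 ± 0.16 (adjusted p = 2.74e-05, limma). MEIS1 rose by 0.85, and MEIS1-AS3, whose start lies 18 bases from that of MEIS1, had 1.39, 1.26 and 1.55 CPM against 1.18, 1.44 and 1.95 (difference -0.94 ± 0.21, adjusted p = 0.0013, limma). With the replicate block HAND2-AS1 and TBX2-AS1 passed on their own (adjusted p = 0.000498 and 0.0126, edgeR). In the fit without a block GATA2-AS1 was the only member of these 5 to do so. It had 8.48, 10.6 and 9.41 CPM against 5.82, 8.47 and 7.32, a change of 0.40 ± 0.14 (adjusted p = 0.042, edgeR), beside 0.73 for GATA2, and the difference of -0.33 ± 0.13 did not pass (adjusted p = 0.0594, limma). It passed with the replicate block (0.0142), with the block and GC and length offsets (0.0363) and with both genes at 1 CPM or more (0.0393). The call of GATA2-AS1 was lost with upper quartile scaling (0.120), library totals (0.108) and a filter of 1 CPM in 3 libraries (0.0578), and without CR31B replicate 3 (0.112), CR31B replicate 4 (0.0928), DMSO replicate 2 (0.136) or DMSO replicate 4 (0.0796, all edgeR).

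**Figure D4:**
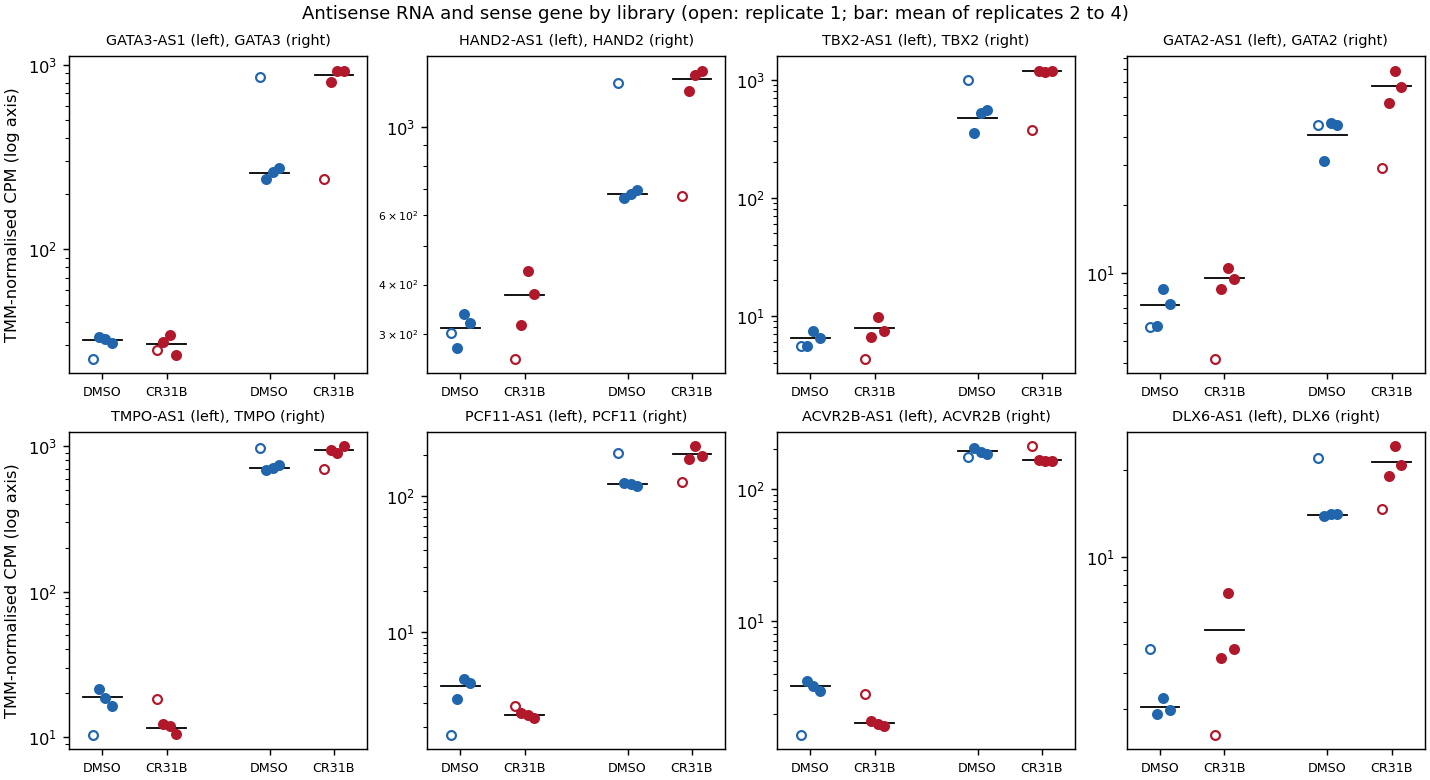
TMM-normalised CPM (log axis) of 8 antisense RNAs (left of each panel) and their sense genes (right) in the DMSO (blue) and CR31B (red) libraries; filled points are single-end replicates 2 to 4, open points replicate 1, and bars the means of replicates 2 to 4. Among the filled points, the sense gene separates by group in the GATA3, HAND2 and TBX2 panels while the antisense points overlap. With the open points included, the sense groups of these panels overlap as well. Filled points of the 2 genes move in opposite directions in the TMPO and PCF11 panels, and in the same direction in the ACVR2B and DLX6 panels.

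Levels differed widely within pairs. Per kb of exon the antisense gene stood at a median of 14.2% of its sense gene over the 172 pairs with a sense gene of at least 1 CPM, and it was the higher of the pair in 22. LRRC75A-AS1 was furthest above, at 145 CPM per kb against 0.622 for LRRC75A, followed by MAGI2-AS3 at 14.8 against 0.315 for MAGI2. TP73-AS1 was also above TP73, at 3.11 against 2.43. OIP5-AS1 and OIP5 were nearly equal at 18.7 and 18.8. TPT1-AS1 lay furthest below, at 0.105% of TPT1, a very abundant growth-related mRNA.

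Pairs were also described by their arrangement. Head to head, with starts within 1000 bases, were 82 members, of which 22 were called (10 higher, 12 lower) and 35 differed from their sense gene. Overlapping in another way were 111, of which 34 were called (18 higher, 16 lower) and 44 of 102 tested pairs differed. The correlation of antisense with sense change was 0.065 (Pearson) in 82 head-to-head pairs and 0.119 in 102 overlapping pairs. It was 0.131 in 131 pairs with any transcript starts within 1000 bases and 0.057 in the 54 others. Among called pairs, 7 head-to-head pairs moved in the same direction and 4 in opposite directions. Overlapping pairs with shared exonic bases had 2 in the same and 8 in opposite directions, and those without had 4 and 0; whether these splits differ was not tested.

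A RefSeq window was matched by symbol for 160 members. Their mean GC content was 64.4% against 57.2% over all 27305 windows of the table, and their median number of CpG dinucleotides 25 against 14. GGGCGG was present on either strand in 93 of 160 (58.1%) against 44.6% of all windows, CCAAT in 33.8% against 35.7%, and TATAAA, the core TATA element, in 6.25% against 12%. CACGTG, the E-box bound by MYC family dimers, was in 10.6% against 7.43%, and TGACGTCA, the cyclic AMP response element, in 4.38% against 1.98%. Of windows of members called higher, 10 of 27 held GGGCGG and 0 of 27 CACGTG. Of those called lower, 16 of 23 held GGGCGG, among them the ACVR2B-AS1 and SATB1-AS1 windows shown above, and 1 of 23 CACGTG. These are counts of letters in the windows, both strands searched, and matches of different motifs may share bases.

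Genes that process antisense RNAs were themselves measured, and their called counts stand beside 41.3% called of all tested genes and 49.7% of those at 1 CPM or more. Of 23 tested genes of the exosome and its nuclear adaptors 5 were higher and 3 lower, with a median log2 fold change of -0.016. MTREX (0.28), the gene of the exosome helicase MTR4, and its adaptor genes ZCCHC8 (0.43), ZFC3H1 (0.39) and ZC3H18 (0.37) were higher, as was the exosome subunit EXOSC8 (0.22), and the subunits EXOSC5 (-0.26), EXOSC10 (-0.23) and EXOSC1 (-0.18) were the lower ones. Of 25 genes of Integrator and early termination 9 were higher and 6 lower, with a median of 0.019. INTS6 (1.11), an Integrator subunit, moved furthest, PCF11 (0.75) next and PPP1R10 (0.63) after it, and XRN2 (-0.31), the exonuclease of transcription termination, was the furthest below 0. Of 15 tested enzymes and sensors of double-stranded RNA 6 were higher and 2 lower, with a median of 0.088. DDX58 (0.68), the gene of the sensor RIG-I, and STAU2 (0.59), a neuronal RNA-binding protein, were higher, and DICER1 (-0.43) was lower. IFIH1, OAS1, OAS2 and OAS3 were each under 0.02 CPM. Called genes of these 3 lists had the opposite sign in replicate 1.

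Most antisense-named genes outside the rule were not called. Of the 1021 under the minimum 173 were tested, 4 were higher and 10 lower, and the median was -0.13. Of 71 tested noncoding genes with other suffixes, 8 were higher and 5 lower with a median of -0.12. For all tested genes the share called was 41.3% (6901 of 16696), and for those at 1 to 2 CPM it was 19.0%. The 173 lie under these levels. Of tested genes at 1 CPM or more 6529 of 13136 were called, so most tested genes under 1 CPM were not called either. Whether the low counts here go beyond low level was not tested. When newer symbols decided membership, 241 genes qualified, 178 of them shared with the 196, and 73 (30.3%) were called.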

How the data were processed

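The data are gene counts of polyadenylated RNA from IMR32 cells in 8 libraries, 4 per group, 3 of them single-end. The authors deposited 1 table of raw counts per Ensembl gene, not normalised, with whole numbers in every column. Per the submitters' processing notes, FastQC 0.11.7, STAR 2.7.2b, edgeR 3.36.0, limma 3.50.3 and the build GRCh38 were used; the counter and annotation are not given in the sources used here, and a strand setting only so far as the deposited table's name holds the word "reverse". Per the labels, libraries came from a small RNA kit although the molecule is polyadenylated RNA, with 250 ng of input and 15 PCR cycles, so counts include PCR duplicates and depth covers counting error only. Symbols, coordinates and arrangement come from GENCODE release 29, which holds 58515 of the 58787 identifiers.

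Counts were tested with edgeR 4.0.16 (R 4.3.3; glmQLFit and glmQLFTest, filterByExpr, TMM, Benjamini-Hochberg over all tested genes, threshold 0.05, two-sided) in the 6 single-end libraries, and in all 8 as labelled with layout as a covariate. Values per library are TMM-normalised CPM. Antisense minus sense log2 CPM (prior count 1) was tested with limma 3.58.1 over 410 pairs. Named genes were the 12 largest called changes in each direction, the 8 most abundant members, the 12 largest called pair differences, members beside core adrenergic factors, and the 3 on either side of the minimum. Of these, 1 pair is counted but its values are not reported here. The members, lists and the single-end design were chosen with earlier results of these data known. Alternatives were other scalings and filters, DESeq2 1.42.0, limma voom, a replicate block, GC and length offsets, and leaving out each library. Offsets and the 8-library fit for pairs, correlations under other settings and newer symbols were added after seeing the data.

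Libraries differed by more than sampling noise (smallest mean chi-square 6.92 per gene). Deviations from the group means correlated at 0.208, 0.388 and 0.157 between same-numbered libraries of replicates 2, 3 and 4, so the numbers pair these libraries. On simulated counts for 16483 genes in 6 libraries, 93.9% of genes changed by a log2 value of 1 and 71.6% of those changed by 0.5 were recovered, with 4 false calls of 165. For 403 simulated pairs 88.1% of the 59 changed ones were recovered, with 2 false calls. Both simulations gave every gene the same dispersion and no effect shared by same-numbered libraries, and 194 of the 16483 genes were changed. In the measured data 41.3% of tested genes were called and same-numbered libraries deviated together. These rates therefore check the fits and do not carry over to the members.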

Additional observations from a re-analysis of the deposited data

Results flagged for a closer look

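In the single-end and paired-end libraries the CR31B difference had opposite signs in 57 of the 196 members that passed a test of the difference between layouts (edgeR, 1 paired-end library per group). Of 86 groups of 4 libraries looked at for the named members, 11 held a library whose gap to its nearest neighbour, as a share of the whole range, passed Dixon's value of 0.829. At 1 in 20, about 4.3 would be passed in independent groups that were not selected. These groups share the same libraries, and many members were named for changes in replicates 2 to 4. The 2 numbers therefore cannot be compared. In all 11 the distant library was replicate 1. Among the DMSO libraries the share was 0.862 for TFAP2A-AS1, 0.979 for KIAA1614-AS1, 0.849 for VLDLR-AS1, 0.843 for RTCA-AS1 and 0.857 for TP73-AS1. Among the CR31B libraries it was 0.829 for MAGI2-AS3, 0.845 for OTUD6B-AS1, 0.911 for ZNF503-AS2, 0.848 for SATB1-AS1, 0.922 for ZNF710-AS1 and 0.865 for ACVR2B-AS1.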

How the results depend on the processing

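Members called in the single-end libraries numbered 56, and 87 with the replicate block. Those called lower numbered 28, but 47 with upper quartile scaling, 48 with the replicate block, 44 with the block and GC and length offsets, and 16 to 43 when each library was left out. With all 8 libraries as labelled 0 genes and 0 members passed, and leaving out libraries gave 0 to 6920 genes and 0 to 56 members. Calls came back only without a replicate 1 library, which in effect returns the single-end fit. Of the 122 called pairs 0 passed in all 8 libraries, as did 0 of the 79 with a member, of the 20 above and of the 59 below the sense gene. Without the abundance trend 49 member pairs passed, 8 of them above. Pairs above the sense gene numbered 36 with the block and offsets and 13 to 20 when each library was left out. The members' median log2 fold change, -0.10, was -0.19 with upper quartile scaling and -0.18 with library totals. The Pearson r of 0.109 was 0.0755 with a filter of 1 CPM and 0.0975 to 0.117 when each library was left out. No fold change past the threshold reversed under the settings run. Of uncalled ones, 5 took both signs when each library was left out, from -0.0026 to 0.31 for CBR3-AS1, -0.20 to 0.29 for POC1B-AS1, -0.057 to 0.017 for LRRC75A-AS1, -0.15 to 0.025 for GATA3-AS1 and -0.27 to 0.099 for MEIS1-AS3. POC1B-AS1 also turned to 0.010 with limma voom, LRRC75A-AS1 to 0.041 with offsets and 0.041 with the block and offsets, and MEIS1-AS3 to 0.030 and 0.044. The cause was not tested. Other calls changed by the replicate block stand beside their values; it ended no call of a named member. What depth limits was not varied; the median SE of the log2 fold change was 0.146 over the members and 0.0728 over tested genes of at least 1 CPM.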
